A study of Gossypium hirsutum with 12 samples.

Results

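The 8 transcripts described here come from cotton primary root tips. Of these, 5 encode membrane proteins named for the transport of sulfate or sulfite and 3 encode sulfotransferases, out of 70477 genes counted. They were listed by gene ID from the differentially accumulated transcripts (DATs) of the study, and so were chosen by their WS48/WW24 and WS48/WW48 differences in these libraries. The values in those comparisons are given as description with no test. All 8 passed the filter on low counts, which left 43938 genes for testing.

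Seedlings of Gossypium hirsutum cv. AU90810 grew in the dark in vermiculite. For water-stressed (WS) seedlings the vermiculite was at a water potential of −1 MPa, and their 6 mm root tips were cut 24 h (WS24) or 48 h (WS48) after transplanting. For well-watered (WW) seedlings it was at −0.02 MPa, and their 12 mm tips were cut after 24 h (WW24) or 48 h (WW48). The paper reports a lower water potential in the stressed root tissue than in its vermiculite. Both lengths were chosen in the study to hold the whole elongation zone, so treatment and length of the excised tip cannot be told apart. Each group had 3 libraries, stated to come from independent experiments, and each library was made from combined root tips.

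Plant roots take up sulfate through proton-coupled carriers of the plasma membrane, and further members of the same family move it between compartments and tissues. Most carriers end in a cytosolic STAS domain, which is needed for transport. Inside the cell, sulfate is activated and then either reduced to sulfide, for cysteine and glutathione, or passed to sulfotransferases, which attach a sulfate group to hormones, flavonoids and other small molecules. None of the roles given below for single genes was measured here. They are those of the Arabidopsis genes for which the cotton transcripts are named.

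Between 6433993 and 11316010 reads per library were counted in genes (median 10000113). Levels are given as CPM, the counts per 1000000 reads of the TMM-scaled library. WW24 replicate 2 stood apart from the other WW24 libraries: it lay at 83.4 on the first principal component, against −26.5 for replicate 1 and −6.91 for replicate 3. It had the highest level among the WW24 libraries for all 8 transcripts, and the results that rest on it are given with and without it. Cotton is a tetraploid with an A and a D subgenome, and the reads of near-identical copies may have been split or shared.

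**Figure D1:**
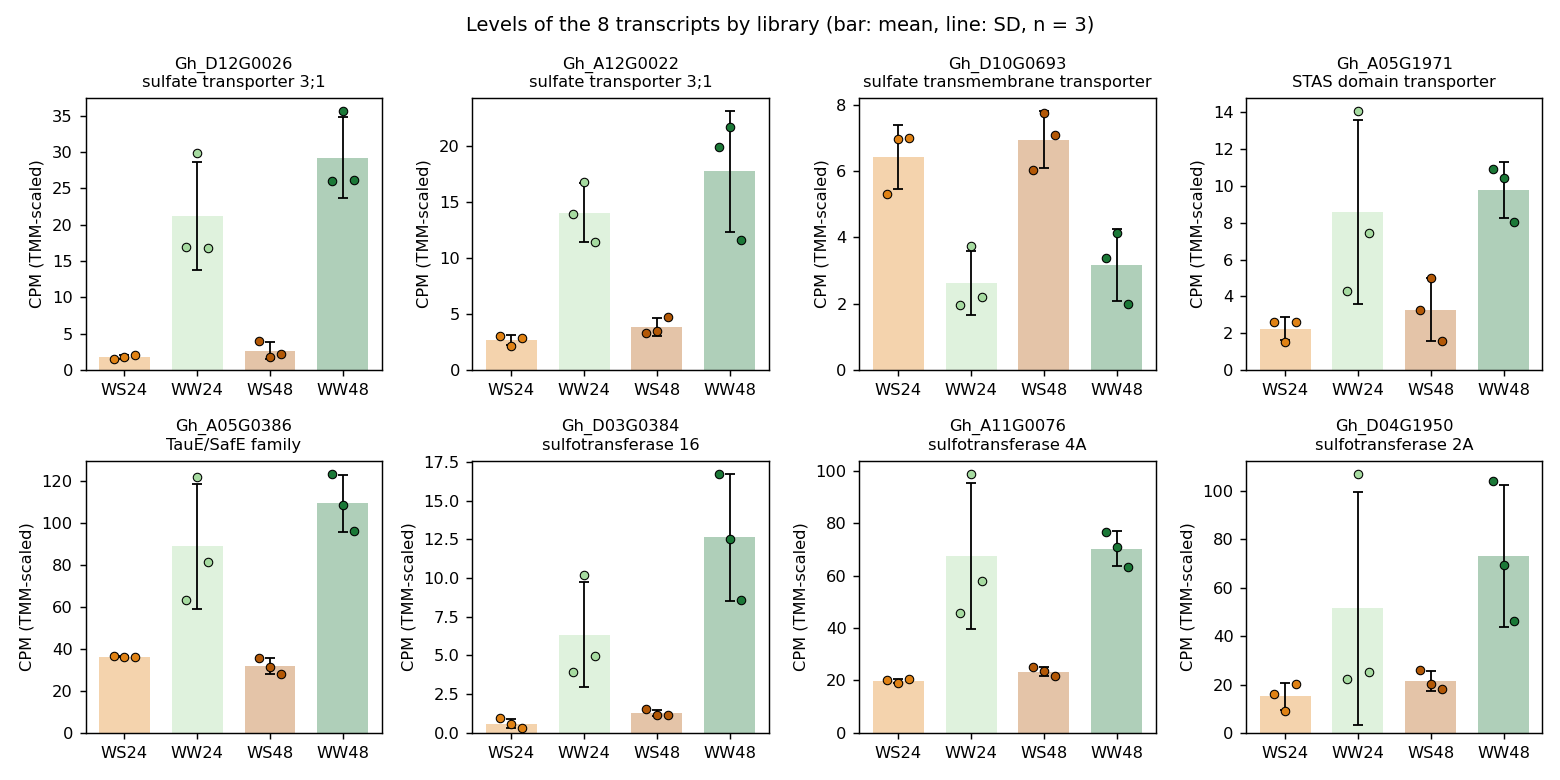
Levels of the 8 transcripts in TMM-scaled CPM on axes that start at 0, with a point for each library, a bar for the group mean and a line for the SD (n = 3). In 7 panels the water-stressed groups lie below the well-watered groups of the same time, and in that of Gh_D10G0693 they lie above.

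Water stress at 24 h was tested in WS24/WW24, a comparison that did not choose the transcripts, although its WW24 libraries took part in the choice. WW24 was matched to WS24 in age, and the study collected no developmental control for WS24. Stress and root development can thus not be told apart in this comparison. A call required that edgeR's quasi-likelihood test gave a p of 0.05 or less after Benjamini-Hochberg adjustment and that the log2 fold change was 1 or more in size. All 8 transcripts were called, 7 lower and 1 higher in WS24, where 8.68% of all genes tested were called (4.93% lower and 3.75% higher). Their median log2 fold change was −1.84, against 0.0004 for all genes tested. The paper reports that most of its cotton DATs responded alike at the earlier time. A call in the same direction was thus likely for any DAT. The values for all genes are no matched base rate, and do not show that these 8 transcripts stand out among DATs. The largest differences were in the sulfate transporter 3;1 pair and in sulfotransferase 16, and the 1 transcript that rose encodes another sulfate transporter. The groups did not overlap for any of the 8, as was so for 33.2% of all genes tested, and without WW24 replicate 2 for 8 of the 8, against 54.7% of all genes. In the WS24 libraries 7 of the 8 reached the level of the low-count filter, and sulfotransferase 16 did not.

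The D copy of sulfate transporter 3;1 (Gh_D12G0026) fell the most. The Arabidopsis protein of this name sits in the chloroplast envelope and supplies sulfate for cysteine synthesis in plastids. It was measured at 1.49, 1.81 and 2.03 CPM in the WS24 libraries, against 17.0, 29.8 and 16.8 CPM in the WW24 libraries. The lowest WW24 library was thus several times as high as the highest WS24 library. The log2 fold change was −3.56 (SE 0.33, edgeR adjusted p = 3.63e-05), and 99.0% of the genes tested had a smaller change. WS24 means rested on few reads, 16 to 20 per library, against 139 to 208 in WW24.

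The A copy (Gh_A12G0022) stood at 3.07, 2.20 and 2.84 CPM in WS24, against 13.9, 16.8 and 11.5 CPM in WW24. It moved in the same direction as the D copy, by −2.37 on the log2 scale (SE 0.27, edgeR adjusted p = 1.71e-04). Since reads may pass between copies of a pair, their sum was tested as well. The sum was 4.56, 4.01 and 4.86 CPM in WS24, against 30.9, 46.6 and 28.3 CPM in WW24, and it fell by 2.97 on the log2 scale (SE 0.24, edgeR adjusted p = 1.18e-05). Both copies and their sum kept their calls in WS24/WW24 in each of the alternatives tried.

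The sulfate transmembrane transporter Gh_D10G0693 was the exception in direction. Its name places it among sulfate carriers but gives no subgroup. It reached 5.31, 6.97 and 6.99 CPM in WS24, against 1.96, 3.73 and 2.20 CPM in WW24, with the highest watered library still below the lowest stressed one. It rose by 1.31 on the log2 scale (SE 0.30, edgeR adjusted p = 0.0131). WW24 replicate 2 lay nearest to the stressed libraries, and without it the log2 fold change was 1.63. Without WS24 replicate 2 the value was 1.24 with an edgeR adjusted p of 0.0527, which is no call (0.00163 to 0.759 over 23 alternatives). This range of adjusted p, like those below, pools edgeR with other tools. Its upper end in WS24/WW24 came from edgeR's test for a log2 fold change beyond 1, here and for the transcripts below.

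Another carrier, Gh_A05G1971, is named for its STAS domain. It had 2.61, 1.53 and 2.63 CPM in WS24, against 4.28, 14.1 and 7.43 CPM in WW24. The WW24 libraries were widely spread, and their lowest value lay above all of WS24. The log2 fold change was −1.91 (SE 0.45, edgeR adjusted p = 0.0154). Without WW24 replicate 2 it was −1.37 and still called, whereas without WS24 replicate 2 it was −1.69 with an edgeR adjusted p of 0.0735, which is no call (0.000713 to 0.227 over 23 alternatives).

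Gh_A05G0386 belongs to the TauE/SafE family, membrane proteins named after bacterial exporters of sulfite and related anions. Its WS24 libraries were nearly equal at 36.5, 36.1 and 36.1 CPM, against 63.4, 122 and 81.4 CPM in WW24. The log2 fold change was −1.29 (SE 0.21, edgeR adjusted p = 0.0016). Without WW24 replicate 2 it was −0.98, just short of the threshold of 1, with an edgeR adjusted p of 0.000495 (3.41e-07 to 0.480 over 23 alternatives).

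Among the sulfotransferases, sulfotransferase 16 (Gh_D03G0384) fell the most. In Arabidopsis this enzyme sulfates the precursors of glucosinolates. It stood at 0.931, 0.573 and 0.304 CPM in WS24, against 3.91, 10.2 and 4.95 CPM in WW24. The WS24 values are 3 to 10 reads per library. Of the WS24 libraries 0 of 3 reached the filter's level, against 3 of 3 in WW24, WW48 and WS48, so the transcript was tested for its levels outside WS24, which favours a lower value in WS24. The log2 fold change was −3.34 (SE 0.47, edgeR adjusted p = 6.66e-04), and it was −2.83 and still called without WW24 replicate 2.

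Sulfotransferase 4A (Gh_A11G0076), named for an Arabidopsis enzyme that sulfates brassinosteroids, had 20.1, 19.0 and 20.5 CPM in WS24, against 45.6, 98.9 and 58.1 CPM in WW24. The stressed libraries lay far closer together than the watered ones. It fell by 1.76 on the log2 scale (SE 0.23, edgeR adjusted p = 4.34e-04), and by 1.37 without WW24 replicate 2. Like the transporter 3;1 pair and sulfotransferase 16, it lost its WS24/WW24 call in none of the 23 alternatives.

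Sulfotransferase 2A (Gh_D04G1950) is named for the Arabidopsis enzyme that sulfates hydroxyjasmonates. It had 16.2, 9.17 and 20.2 CPM in WS24, against 22.3, 107 and 25.2 CPM in WW24. Only WW24 replicate 2 was far above the stressed libraries, and the other WW24 libraries were just above the highest of them. The log2 fold change was −1.76 (SE 0.54, edgeR adjusted p = 0.0487). Without WW24 replicate 2 it was −0.63 with an edgeR adjusted p of 0.204 (0.00696 to 0.531 over 23 alternatives). The call was lost in 17 of 23 alternatives, among them 10 of the 12 in which a single library was left out: WW24 replicate 2 or any library of WS24, WW48 or WS48.

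**Figure D2:**
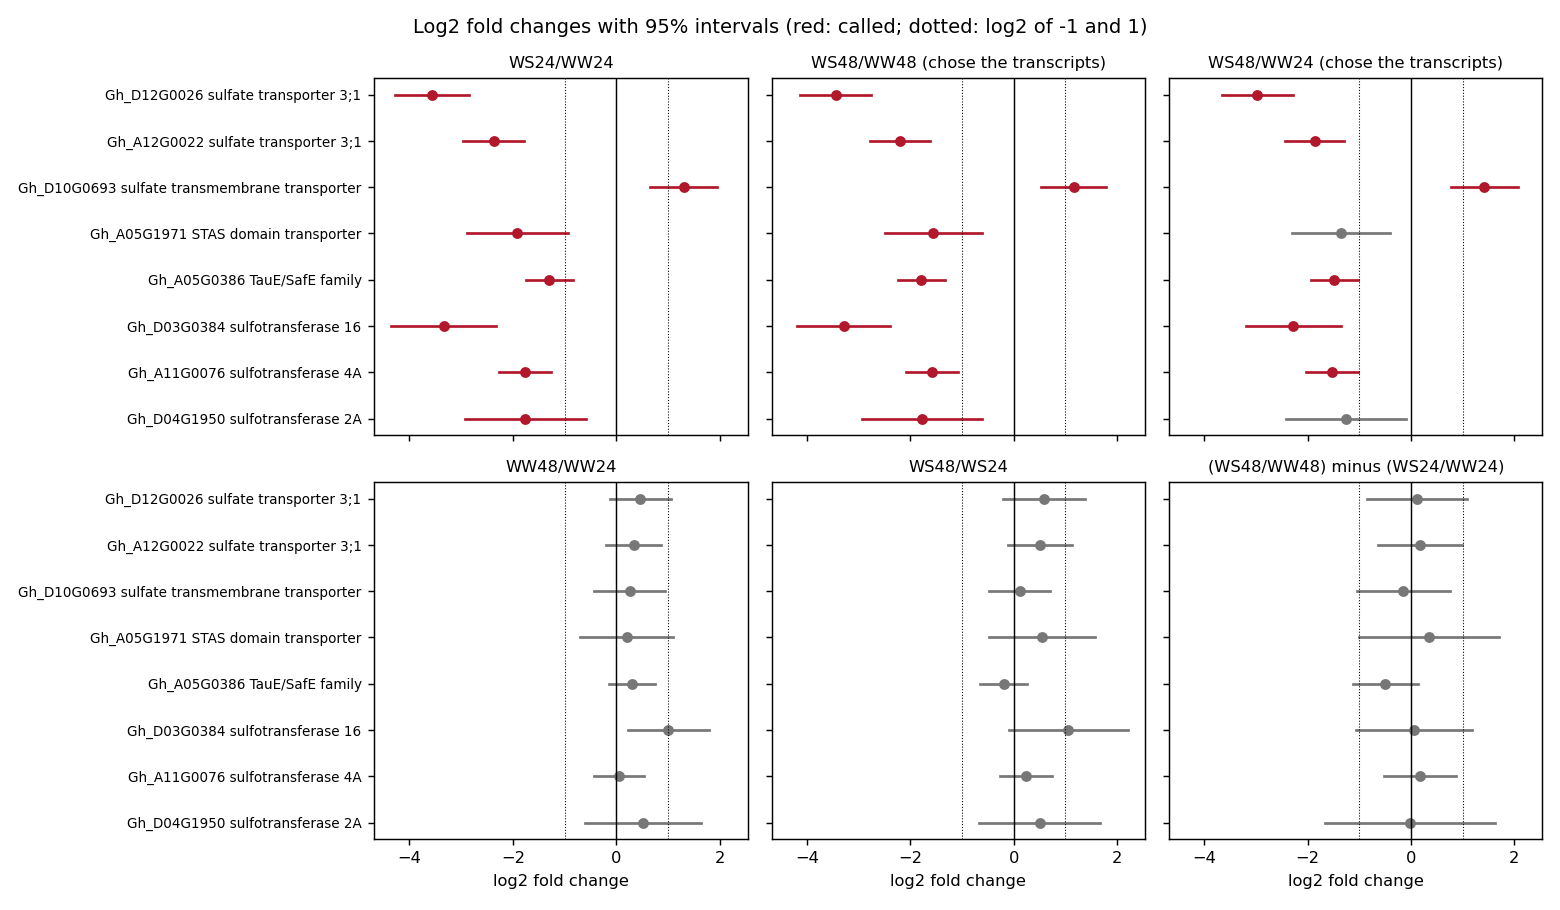
Log2 fold changes of the 8 transcripts with 95% intervals from the fit of all 12 libraries, in red where called and in grey where not, with dotted lines at −1 and 1. All 8 were called in WS24/WW24 and none in the time comparisons or in the difference of the stress effects, and the panels marked as having chosen the transcripts are shown as description.

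At 48 h the levels had the same order, here given without a test because WS48 against each watered group chose the transcripts. For that reason nothing is read from how many met the thresholds, which in the fit used here were 8 of the 8 in WS48/WW48 (9.16% of all genes) and 6 of the 8 in WS48/WW24 (7.47%). The others in WS48/WW24 were Gh_A05G1971 at −1.36 (SE 0.44) and Gh_D04G1950 at −1.25 (SE 0.53), and these values were −0.83 and −0.14 without WW24 replicate 2. The member nearest to the fold threshold from inside was Gh_D10G0693 at 1.16 (SE 0.29) in WS48/WW48.

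The D copy of transporter 3;1, Gh_D12G0026, had 4.02, 1.78 and 2.22 CPM in WS48, against 26.0, 35.6 and 26.1 CPM in WW48. The A copy, Gh_A12G0022, had 3.35, 3.47 and 4.75 CPM in WS48, against 19.9, 21.7 and 11.6 CPM in WW48. Each WS48 library was below each watered library of either time for both copies. The fitted WS48/WW48 values were −3.44 (SE 0.32) for the D copy and −2.20 (SE 0.26) for the A copy, and the WS48/WW24 values −2.98 (SE 0.32) and −1.86 (SE 0.26).

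Gh_D10G0693 had 6.03, 7.74 and 7.07 CPM in WS48, against 3.39, 4.13 and 1.99 CPM in WW48. The STAS domain transporter Gh_A05G1971 had 3.25, 4.98 and 1.58 CPM in WS48, against 10.9, 10.4 and 8.06 CPM in WW48, and WS48 replicate 2 overlapped the lowest WW24 library. The TauE/SafE transcript Gh_A05G0386 had 35.7, 31.2 and 28.2 CPM in WS48, against 123, 108 and 96.2 CPM in WW48. The direction in these 3 transport genes was the one seen at 24 h. With single libraries left out, the WS48/WW48 value of Gh_A05G1971 no longer met the thresholds in 4 of 12 cases. For Gh_D10G0693 this was so in 3 of the 12 and for Gh_A05G0386 in 0.

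Sulfotransferase 16 (Gh_D03G0384) had 1.53, 1.16 and 1.16 CPM in WS48, against 16.7, 12.5 and 8.58 CPM in WW48. Sulfotransferase 4A (Gh_A11G0076) had 25.3, 23.4 and 21.5 CPM in WS48, against 76.5, 70.7 and 63.2 CPM in WW48. Sulfotransferase 2A (Gh_D04G1950) had 25.9, 20.4 and 18.1 CPM in WS48, against 104, 69.3 and 46.1 CPM in WW48. For sulfotransferase 2A WS48 and WW48 did not overlap, but its WS48/WW48 value of −1.77 (SE 0.54) no longer met the thresholds in 8 of the 12 cases in which a single library was left out (any library of WS24 or WS48, or WW48 replicate 1 or 2). WS48 overlapped WW24, in which replicates 1 and 3 had 22.3 and 25.2 CPM.

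Time was compared within each treatment. Both watered groups and WS48 took part in the choice of the transcripts, which had to differ between WS48 and each watered group in the same direction. The shares for all genes are thus no matched base rate for WW48/WW24 or WS48/WS24. In watered roots (WW48/WW24) 0 of the 8 were called, where 4.79% of all genes were. DESeq2, limma-voom and edgeR's test against a fold threshold called 0 as well, against 6.22%, 4.47% and 0.435% of all genes. An unadjusted p under 0.05 in edgeR was found for 10984 of the 43938 genes tested and for 1 of the 8 transcripts. That transcript was sulfotransferase 16 (Gh_D03G0384), at 16.7, 12.5 and 8.58 CPM in WW48, against 3.91, 10.2 and 4.95 CPM in WW24. Its log2 fold change was 1.01 (SE 0.36, edgeR adjusted p = 0.101). The other 7 had values between 0.06 and 0.52, with 95% intervals that all held 0. The widest of these was that of sulfotransferase 2A, from −0.61 to 1.64, which does not exclude a change past the threshold.

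The count for watered roots rested on WW24 replicate 2. Without it, 11.5% of all genes were called in WW48/WW24, and 2 of the 8 transcripts were among them, both sulfotransferases. Sulfotransferase 16 (Gh_D03G0384) then rose by 1.48 on the log2 scale (edgeR adjusted p = 0.00478, from 0.00478 to 1 over 23 alternatives). Sulfotransferase 2A (Gh_D04G1950) rose by 1.61 (edgeR adjusted p = 0.00442, and 0.00442 to 1 over 23 alternatives). Both ranges pool the tools, among them the test against the fold threshold. The WW48 and WW24 libraries did not overlap for 0 of the 8 transcripts, against 23.3% of all genes tested, and without WW24 replicate 2 for 6 of the 8, against 54.1% of all genes.

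**Figure D3:**
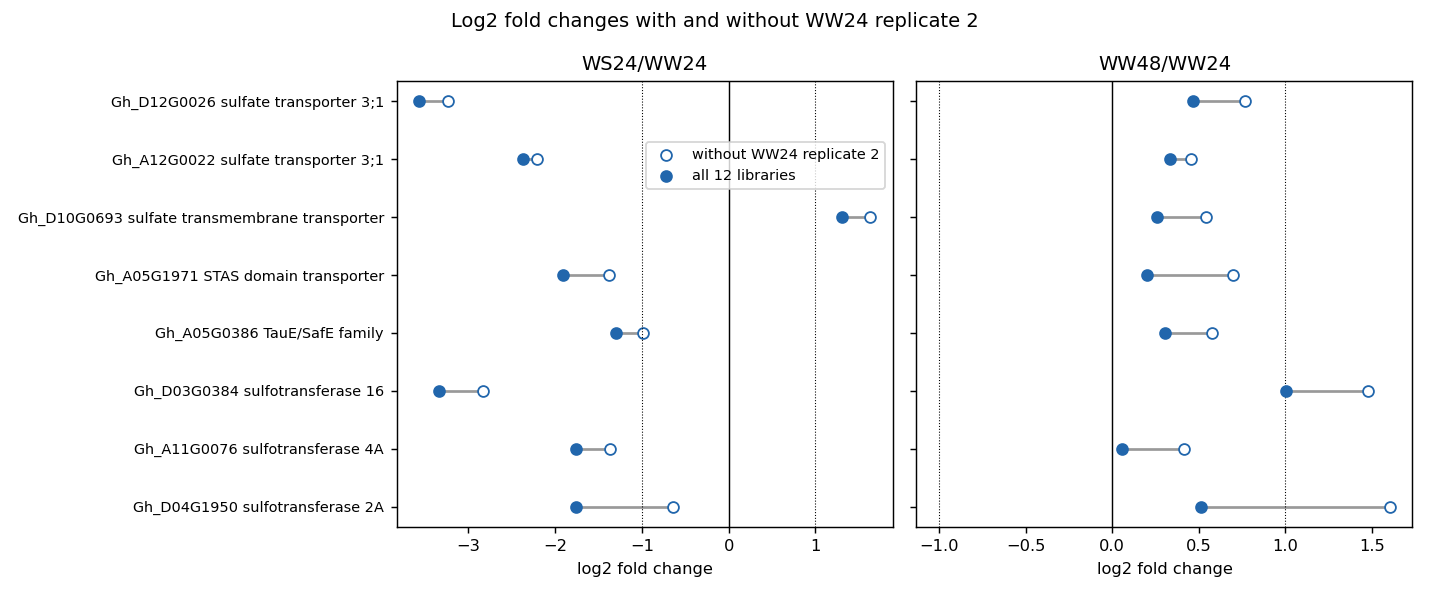
Log2 fold changes of the 8 transcripts in WS24/WW24 (left) and WW48/WW24 (right), with filled points for all 12 libraries and open points without WW24 replicate 2. Every value lies further to the right without that library, most of all for sulfotransferase 2A, which goes to −0.63 in WS24/WW24 and to 1.61 in WW48/WW24.

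In stressed roots (WS48/WS24) 0 of the 8 were called, where 0.382% of all genes were. DESeq2, limma-voom and edgeR's test against a fold threshold called 0 too, against 1.96%, 0.437% and 0.00683% of all genes. An unadjusted p under 0.05 in edgeR was found for 6214 of the 43938 genes tested and for 0 of the 8 transcripts. Sulfotransferase 16 (Gh_D03G0384) had the largest value, 1.06 (SE 0.53, edgeR adjusted p = 0.396), with levels of 1.53, 1.16 and 1.16 CPM in WS48, against 0.931, 0.573 and 0.304 CPM in WS24. The TauE/SafE transcript (Gh_A05G0386) was the only one with a value below 0, at −0.19 (SE 0.21, edgeR adjusted p = 0.725). The WS48 and WS24 libraries did not overlap for 4 of the 8 (Gh_A12G0022, Gh_A05G0386, Gh_D03G0384 and Gh_A11G0076), against 33.5% of all genes tested, and none of the 4 was called.

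The stress effects at the 2 times were compared by subtracting WS24/WW24 from WS48/WW48 in the same model. WS48/WW48 took part in choosing the transcripts, which shapes this difference, so the values are a description. Of the 8 transcripts 0 were called, as were 0% of all genes. For all genes 5160 had an unadjusted p under 0.05 in edgeR and DESeq2 called 403, and for the 8 transcripts these counts were 0 and 0. The differences ran from −0.50 (TauE/SafE, SE 0.29) to 0.35 (STAS domain transporter, SE 0.62). The 95% intervals all held 0 and were wide, from −1.66 to 1.63 for sulfotransferase 2A and from −0.84 to 1.08 for the D copy of transporter 3;1. Without WW24 replicate 2, where 3.67% of all genes were called, 0 of the 8 were called, and the value of the TauE/SafE transcript (Gh_A05G0386) was −0.78, short of the fold threshold of 1 though past that of the adjusted p.

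By group mean, the D copy of transporter 3;1 (Gh_D12G0026) stood at 2.67 ± 1.19 CPM in WS48 and 1.78 ± 0.27 CPM in WS24, against 29.2 ± 5.55 CPM in WW48 and 21.2 ± 7.48 CPM in WW24 (SD, n = 3 each). In 6 of the 8 transcripts WW48 had the highest group mean, followed by WW24, WS48 and WS24. The TauE/SafE transcript (Gh_A05G0386) differed in that WS48 was the lowest, with 31.7 ± 3.78 CPM in WS48 and 36.2 ± 0.25 CPM in WS24, against 109 ± 13.6 CPM in WW48 and 88.8 ± 29.9 CPM in WW24. Gh_D10G0693 had the reverse order of treatments, with 6.95 ± 0.87 CPM in WS48 and 6.42 ± 0.96 CPM in WS24, against 3.17 ± 1.09 CPM in WW48 and 2.63 ± 0.96 CPM in WW24. Neighbours of the same treatment did not differ past the thresholds for any of the 8 in the fit of all 12 libraries.

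The balance between the copies of transporter 3;1 was compared as well. Of the reads of the pair, the D copy held 32.7% (95% Wilson interval 21.2% to 46.6%), 45.2% (31.2% to 60.1%) and 41.7% (28.8% to 55.7%) in the WS24 libraries. In the WW24 libraries it held 54.9% (48.8% to 61.0%), 64.0% (58.6% to 69.0%) and 59.4% (53.8% to 64.8%). These intervals cover counting error only. The groups did not overlap, and their means were 39.9% ± 6.49 in WS24 and 59.5% ± 4.53 in WW24 (SD, n = 3 each), a difference of −19.6 percentage points. A two-sided exact permutation test gave p = 0.1, the smallest that 3 against 3 libraries allow, so it cannot reach 0.05 (0.3 after Benjamini-Hochberg adjustment over the 3 comparisons made).

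At 48 h the D copy held 54.5% (95% Wilson interval 43.5% to 65.2%), 33.9% (23.1% to 46.6%) and 31.8% (21.8% to 43.8%) in WS48, against 56.6% (52.0% to 61.1%), 62.1% (57.1% to 66.9%) and 69.2% (64.7% to 73.4%) in WW48. WS48 replicate 1 was closer to the watered libraries than to the other WS48 libraries. The mean difference was −22.6 percentage points, given as description. The shares differed by 3.19 percentage points in WW48 minus WW24 (exact permutation p = 0.6, adjusted 0.9) and by 0.235 in WS48 minus WS24 (exact permutation p = 1, adjusted 1), less than the spread between libraries.

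**Figure D4:**
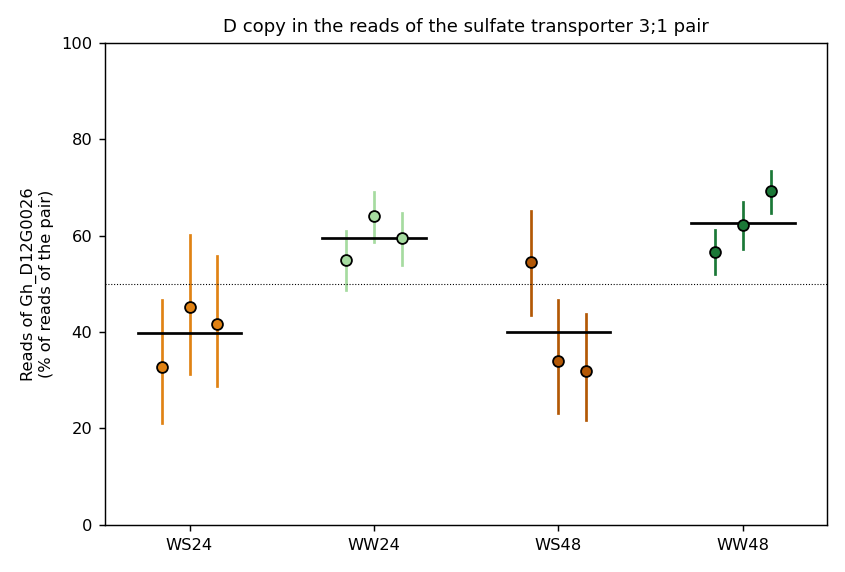
Share of the D copy, Gh_D12G0026, in the reads of the sulfate transporter 3;1 pair, with a point and a 95% Wilson interval for each library, a black line for the group mean and a dotted line at equal shares. The means are 39.9% in WS24, against 59.5% in WW24, and 40.1% in WS48, against 62.6% in WW48, with WS48 replicate 1 at 54.5%, just below the watered libraries.

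The study's DATs hold 4 further sulfotransferases. They are 2 more genes named sulfotransferase 16 (Gh_D03G0378 and Gh_D03G0383), whose IDs neighbour Gh_D03G0384 and whose reads may be shared with it, another sulfotransferase 2A (Gh_D11G2357), and sulfotransferase 12 (Gh_A07G0525), in Arabidopsis an enzyme that sulfates salicylic acid and flavonoids. In WS24/WW24 3 of the 4 were called, all lower, where 4.93% of all genes were lower. Gh_D03G0383 had 0.279, 0.191 and 0.911 CPM in WS24, against 7.46, 14.8 and 9.17 CPM in WW24, or −4.48 on the log2 scale (SE 0.54, edgeR adjusted p = 2.29e-04). These are 2 to 9 reads per library in WS24, where 0 of 3 libraries reached the filter's level, so here too the filter favours a lower value in WS24 and the fold is loosely known. Gh_A07G0525 had a value of −0.92 (SE 0.25, edgeR adjusted p = 0.0259), short of the fold threshold. Between 2 and 3 of the 4 were called lower when single libraries were left out.

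The 3 sulfotransferase 16 genes were also tested as a sum, which is free of any exchange of reads among them. The sum was 12.6, 13.1 and 13.1 CPM in WS24, against 33.9, 70.6 and 36.6 CPM in WW24, and it fell by 1.86 on the log2 scale (SE 0.29, edgeR adjusted p = 1.34e-03). It was −1.43 and still called without WW24 replicate 2. Most of the sum came from Gh_D03G0378, with means of 11.8 CPM in WS24 and 30.2 CPM in WW24. That gene alone was at −0.91 and not called without WW24 replicate 2. The sum therefore says little of Gh_D03G0384 by itself. The sum was not called in WW48/WW24 (0.30, SE 0.27, edgeR adjusted p = 0.541) or in WS48/WS24 (0.25, SE 0.29, edgeR adjusted p = 0.754).

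Of the study's DATs, 10 further genes are named for sulfur compounds: 5 rhodanese-domain proteins, 3 methionine sulfoxide reductases, a sulfolipid synthase and the precursor of the peptide hormone phytosulfokine. In WS24/WW24 0 were higher and 5 lower (3.75% and 4.93% of all genes), with a median of −1.32 against 0.0004 for all genes. These were 3 rhodanese genes, the sulfolipid synthase (Gh_A04G0761) and the phytosulfokine precursor (Gh_A11G1922). The reductases, which repair oxidized methionine, were not called. Between 3 and 7 of the 10 were lower when single libraries were left out, with 3 without WW24 replicate 2 or WS24 replicate 2 and 7 without WW48 replicates 1 or 2. All 14 of these further genes were called by the study in WS48 against both watered groups, so their direction is not independent evidence.

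Markers of other cell types also differed between WS24 and WW24, given here as description. The xylem, root hair, root cap and photosynthetic genes are all DATs of the study. Their counts of called genes thus follow in part from that choice (of all genes, 4.93% were lower and 3.75% higher). The xylem list, made up of laccases, fasciclin-like arabinogalactan proteins and a xylem peptidase, was lower in 12 of 12 genes in WS24/WW24, and its summed level ran from 41.2 to 57.2 CPM in WS24, against 255 to 1048 CPM in WW24. The phloem list (phloem protein 2) was lower in 4 of 19 genes tested, with sums of 99.8 to 111 CPM in WS24, against 115 to 186 CPM in WW24. The root hair list was lower in 2 of 2 genes, with sums of 85.4 to 138 CPM in WS24, against 177 to 594 CPM in WW24. WW24 replicate 2, the WW24 library with the highest level of all 8 transcripts, also had the highest sum of the WW24 libraries for these 3 lists.

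The remaining lists went the other way. The list of dividing cells was higher in 6 and lower in 2 of 10 genes, with sums of 975 to 1057 CPM in WS24, against 393 to 438 CPM in WW24. The root cap gene stood at 7.49 to 8.75 CPM in WS24, against 0.717 to 2.57 CPM in WW24, and was called higher. The photosynthetic list was higher in 2 of 3 genes, with sums of 10.1 to 12.1 CPM in WS24, against 2.30 to 6.33 CPM in WW24. None of the 12 xylem markers or of the 10 genes of dividing cells was at 0 in every library, and 1 of the 27 phloem genes was. All of these markers are DATs of the study except 22 phloem genes and 1 gene of dividing cells. What part the makeup of the excised tips had in the 8 transcripts was not tested, and in bulk tissue fewer cells of a type and less RNA per cell cannot be told apart.

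**Figure D5:**
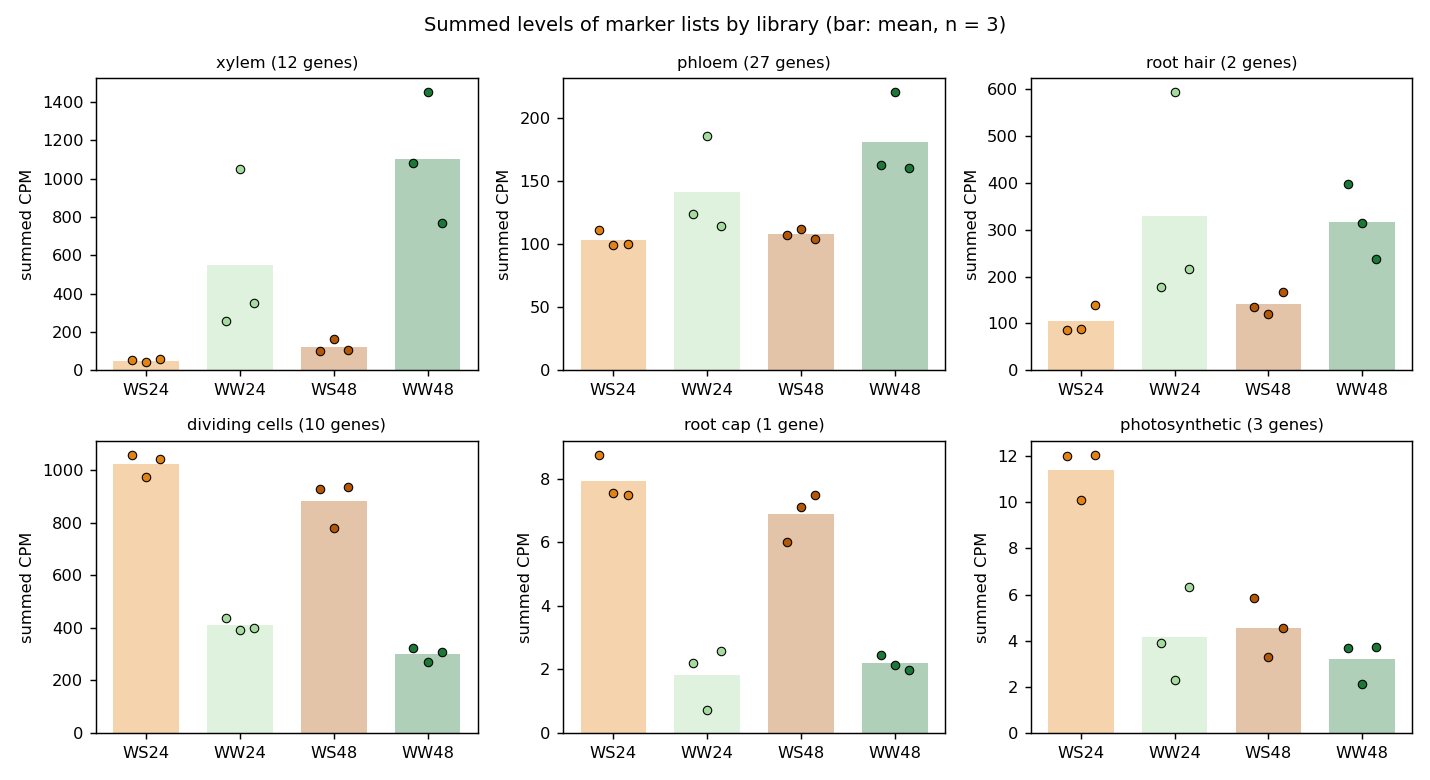
Summed CPM of 6 marker lists on axes that start at 0, with a point for each library and a bar for the group mean (n = 3). Xylem, phloem and root hair sums are lower in the WS24 and WS48 libraries than in the watered libraries of the same time, and sums of dividing cells and of the root cap gene are higher, with WW24 replicate 2 at 1048 CPM for xylem.

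The members varied together across the 12 libraries. Pearson's r of log2(CPM + 0.5) between the 7 lower transcripts ran from 0.83 to 0.98, and between these and Gh_D10G0693 from −0.81 to −0.45. These libraries share the step between the treatments, so the values are a description. The highest r was that of the TauE/SafE transcript (Gh_A05G0386) with sulfotransferase 4A (Gh_A11G0076), and the weakest that of sulfotransferase 2A (Gh_D04G1950) with Gh_D10G0693.

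Transcripts most like each member were sought among 1048 genes with a function in the study's tables and a mean of at least 5 CPM. Those tables centre on the study's DATs, so many candidates were chosen by the same WS48 comparisons as the members. Likeness to genes outside those tables was not examined. The D copy of transporter 3;1 was most like PYR1-like 4 (Gh_D01G2250, r = 0.99), a receptor of abscisic acid, and sucrose-proton symporter 2 (Gh_A02G0626, r = 0.99), in Arabidopsis the carrier that loads sucrose into the phloem. The A copy was most like the same symporter (r = 0.98) and phloem protein 2-A12 (Gh_D12G2486, r = 0.98). Sulfotransferase 4A was most like another phloem protein 2-A12 gene (Gh_D05G2690, r = 0.99) and another copy of the symporter (Gh_D02G2392, r = 0.99). Sulfotransferase 16 was most like calcium-dependent protein kinase 21 (Gh_A06G1503, r = 0.99) and sulfotransferase 2A most like a pectin lyase-like protein (Gh_D05G2792, r = 0.97).

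Among the remaining transporters, Gh_A05G1971 was most like methyl esterase 10 (Gh_A11G0421, r = 0.96), Gh_A05G0386 most like a nodulin MtN21/EamA-like transporter (Gh_D01G1867, r = 0.99), and the transporter that rose, Gh_D10G0693, most like acetyl-CoA carboxylase 1 (Gh_A05G2294, r = 0.98), an enzyme of fatty acid synthesis. High values were common among these candidates, many of which share the choice by WS48 differences with the members. For Gh_A11G0076, 37.2% of the candidates had an r over 0.9, for Gh_D12G0026 29.8%, and for Gh_D10G0693 6.58%.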

How the data were processed

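RNA was sequenced from 12 libraries of root tips, 3 in each of WS24, WW24, WS48 and WW48. Per the labels and the submitters' processing notes, the authors aligned reads with HISAT2 (version given as 1.0), counted them per gene with HTSeq 0.6.1 and deposited whole-number counts, which were used here. For the strand setting of HTSeq, the sources used here give nothing. Lines naming no gene were left out, and genes held 60.9% to 68.8% of the reads. The normalized values that the authors deposited as whole numbers, a score here, and their own fold changes and p-values were not used.

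Counts were fitted in one edgeR 4.0.16 quasi-likelihood model of all 12 libraries in R 4.3.3, with TMM and filterByExpr (minimum count 10, total 15), and p-values were adjusted over all 43938 genes. SEs were derived from the F statistic. The scripts were tested on simulated data. Alternatives were DESeq2 1.42.0, limma-voom (limma 3.58.1), a test against the fold threshold, other normalizations and filters, only the groups compared, an adjusted p of 0.01, the replicate block and leaving out each library. For the shares, reads were also pooled over a group. Named were all 8 members, genes of the lists, and per member up to 3 genes with the highest Pearson r. The members and lists were chosen with earlier results of these data known.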

Additional observations from a re-analysis of the deposited data

How the results depend on the processing

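The WS24/WW24 calls of the 8 transcripts were kept in 159 of 184 tests under 23 alternatives and lost in 25, with no change of direction. Since WS48/WW24 and WS48/WW48 chose the transcripts, the counts for those comparisons here and below are a description and no support. The test against the fold threshold called 4 of the 8 in WS24/WW24 (2.11% of all genes), 2 in WS48/WW24 (1.65%) and 4 in WS48/WW48 (2.17%), and an adjusted p of 0.01 left 5 in WS24/WW24 (4.53%) and 5 in WS48/WW48 (4.92%). Library size alone moved the median of all genes by 0.15 in WS24/WW24 and 0.13 in WW48/WW24. It made 55.7% of the WS24/WW24 calls higher (1647 of 3812 with TMM). In WW48/WW24 it called 1 of the 8 (Gh_D03G0384, 1.15), against 5.94% of all genes. Leaving out 1 library gave 5 to 8 members in WS24/WW24 (5.32% to 10.4% of all genes), with 5 without WS24 replicate 2 (5.32%). In WW48/WW24 it gave 0 to 2 (1.65% to 11.5%), with 2 without WW24 replicate 2 (11.5%). Members that met the thresholds were 6 to 7 in WS48/WW24 (5.16% to 8.42%) and 5 to 8 in WS48/WW48 (5.79% to 12.1%). The value of 5 in WS48/WW48 was found without WS48 replicate 3 (5.80%).

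The stress effect at 48 h minus that at 24 h changed sign for Gh_D04G1950 with DESeq2 (0.0168) and RLE size factors (0.0111), for Gh_D12G0026 with limma-voom (−0.0112) and library size alone (−0.0168), and with library size alone for Gh_D03G0384 (−0.0782) and the summed transporter pair (−0.00646). With 1 library left out it ran from −0.30 to 0.35 for Gh_D12G0026, −0.0617 to 0.34 for Gh_A12G0022, −0.43 to 0.0692 for Gh_D10G0693, −0.15 to 0.68 for Gh_A05G1971, −0.43 to 0.51 for Gh_D03G0384, −0.19 to 0.40 for Gh_A11G0076, −1.11 to 0.36 for Gh_D04G1950, −0.11 to 0.29 for the summed pair and −0.46 to 0.24 for the summed sulfotransferase 16 genes. WW48/WW24 ran from −0.13 to 0.70 for Gh_A05G1971, −0.16 to 0.42 for Gh_A11G0076 and −0.000101 to 0.69 for the summed sulfotransferase 16 genes, and WS48/WS24 from −0.00637 to 0.21 for Gh_D10G0693. The D-copy share ran from −0.0857 to 6.21 percentage points in WW48 minus WW24 and from −6.99 to 4.37 in WS48 minus WS24. The causes of these changes were not tested.

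The replicate numbers were not taken to pair the libraries: the correlation of deviations ran from −0.187 to 0.390 over 18 same-number pairs (median −0.000869, 6 over 0.1), against a median of 0.00918 over 36 different-number pairs (8 over 0.1), and 6 of the 12 libraries correlated best with one of their own number. With the replicate block 7 of the 8 were called in WS24/WW24 (Gh_D04G1950 at −1.57, edgeR adjusted p = 0.0905), 6 in WS48/WW24, 8 in WS48/WW48 and 0 in the other comparisons. The lowest WS24 counts, 3 to 10 reads for Gh_D03G0384, limit how well its fall is known.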

Other observations

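Some other sulfur genes were called with time in watered roots (WW48/WW24), where 4.79% of all genes were. Of the 8 transcripts 0 were called there in the fit of all 12 libraries, but 2 were without WW24 replicate 2. Of the 10 further genes named for sulfur compounds, 3 were higher in WW48/WW24, all of them rhodanese-domain proteins, a family that includes enzymes moving sulfur to acceptors. Gh_A12G0538 had 9.55, 62.6 and 25.8 CPM in WW48, against 5.63, 5.74 and 2.75 CPM in WW24, and rose by 2.81 on the log2 scale (SE 0.55, edgeR adjusted p = 0.0113). The WW48 libraries were widely spread but did not overlap WW24. With 1 library left out, 1 (without WW24 replicate 3) to 5 (without WW24 replicate 2) of the 10 were higher.

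Glutathione S-transferases couple the sulfur-containing peptide glutathione to other molecules. Of 9 listed genes 5 passed the low-count filter, and 5 of these 5 were higher in WW48/WW24, where 4.79% of all genes were called. Gh_A09G1510 passed through its levels at 48 h, which favours a higher value in WW48. Its means were 0.511 CPM in WW24 and 0.381 in WS24, against 21.0 in WW48 and 19.2 in WS48. Gh_D09G1520 had 948, 1332 and 723 CPM in WW48, against 43.8, 252 and 77.6 CPM in WW24, and rose by 3.01 on the log2 scale (SE 0.58, edgeR adjusted p = 0.0105). Only 1 was called without WW24 replicate 3, 2 without WW24 replicate 1 or WW48 replicate 2, and 3 without WS24 replicates 2 or 3 or WW48 replicate 3. In WS24/WW24 0 of the 5 were called by edgeR, where 8.68% of all genes were. 4 of the 5 genes share a name, so reads may be shared among them.

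ACC synthases, which make the ethylene precursor from S-adenosylmethionine, went both ways in WS24/WW24, with 1 of 5 higher and 3 lower (3.75% and 4.93% of all genes). Gh_A11G1914 had 6.43, 8.02 and 7.49 CPM in WS24, against 2.08, 2.30 and 1.01 CPM in WW24, and rose by 2.06 on the log2 scale (SE 0.33, edgeR adjusted p = 0.00175). Of the 3 lower genes, 1 was still called without WS24 replicate 2 or 3. All 5 ACC synthases are DATs of the study.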
